A study of Homo sapiens with 4 samples.

Results

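NRF2 ChIP-Seq summits were examined at *GCLC*, *GCLM*, and *GSR*, the genes of glutathione synthesis and recycling, in mammospheres of MDA-MB-231. This established human breast cancer line was cultured as floating spheres, a condition that favors breast cancer stem cells. The study concerned ZMYND8, a histone reader, and where NRF2 occupies the genome in its absence, and compared scrambled control (SC) mammospheres, whose genotype the labels give as parental, with ZMYND8 KO mammospheres, in 2 libraries each. All 4 libraries came from spheres in MammoCult medium on ultralow attachment dishes, with no treatment named in the labels, and used the same NRF2 antibody. Each library was deposited as a list of summits, the base of strongest signal in a peak called by MACS2, with a score taken here to be −log10 of a q-value. Whether the ZMYND8 KO line was a single clone, and whether the replicates were separate cultures, is not given in the sources used here, so p-values measure only the spread between these libraries, which may be technical. A summit list holds no expression, so neither the loss of ZMYND8 nor the identity of the cells could be checked in it.

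Summits were counted when they lay within 20 kb of the gene bodies in hg19, which are chr6:53362139-53481968 for *GCLC*, chr1:94350761-94375012 for *GCLM*, and chr8:30535583-30585443 for *GSR*. The minus strand of *GCLC* and *GCLM* is that of the RefSeq promoters, and *GSR* was placed on the minus strand from general knowledge, so its distances and directions from the start rest on that. This gave 24 summits out of 9717 in all lists. SC replicate 1 held 7 of its 2030 summits there (0.345%), SC replicate 2 held 9 of 6816 (0.132%), ZMYND8 KO replicate 1 held 3 of 394 (0.761%), and ZMYND8 KO replicate 2 held 5 of 477 (1.05%). The lists hold no read counts, so the depth of each library is unknown, scores of different libraries are not on one scale, and a rank within a list (1 is the highest score, ties share the better rank) is given beside each score.

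Glutathione is the main small thiol of the cell. Glutamate-cysteine ligase, made of a catalytic subunit encoded by *GCLC* and a modifier subunit encoded by *GCLM*, carries out the first and rate-limiting step of its synthesis. Glutathione reductase, encoded by *GSR*, uses NADPH to turn oxidized glutathione back into the reduced form, which glutathione peroxidases consume when they detoxify lipid peroxides, the lesion behind ferroptosis. NRF2 binds with a small MAF protein to the antioxidant response element (ARE), and genes of glutathione synthesis are among its textbook targets.

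The promoter of *GCLM* is shown because the start of this gene carried an NRF2 summit in every list and because it held ARE letters. These are the 250 bases before the RefSeq start of the gene, at chr1:93909431-93909680 of GRCh38.p14 on the minus strand, with the match to the ARE in capitals.
GCLM promoter: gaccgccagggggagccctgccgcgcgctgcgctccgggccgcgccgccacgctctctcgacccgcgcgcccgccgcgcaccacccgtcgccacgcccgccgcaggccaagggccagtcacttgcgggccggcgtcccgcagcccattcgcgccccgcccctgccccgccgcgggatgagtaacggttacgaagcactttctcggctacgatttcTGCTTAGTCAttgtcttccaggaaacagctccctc
Read on the other strand the capitals are TGACTAAGCA, a match to the ARE core TGACNNNGC and to a longer form in which an A follows that core. The longer match spans the bases from 35 to 26 before the RefSeq start. On either strand, TGACNNNGC occurred in 10.9% and the longer form in 2.59% of the 35116 RefSeq promoters of this length. The fixed form TGACTCAGC, also a case of the core, occurred in 0.456% and was not found here. RefSeq gave promoters for 2 of the 3 genes, *GCLC* and *GCLM*. In the 250 bases before the RefSeq start of *GCLC*, none of these forms was found. The RefSeq body of *GCLC* is much shorter than the hg19 body used here, so that its start is not the one the distances below are counted from, and its sequence is not printed.

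At all 3 genes the highest-scoring summit of every list lay within 1000 bp of the gene start. This held for 12 of 12 gene and library pairs. At *GCLC* these summits lay 906 to 995 bp from the start, only just inside that limit. The lists were read as hg19 because they had summits within 1000 bp of these starts, so this closeness is not independent of that choice. For *GCLC* the start is that of the hg19 body, which is much longer than the RefSeq one, and not the RefSeq start. These start summits formed 1 site per gene, a site being a run of summits no more than 200 bp apart, and they were the only 3 of 11 sites with a summit in all 4 lists. The nearest member of each site lay 906, 34, and 24 bp from the start of *GCLC*, *GCLM*, and *GSR*.

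**Figure D1:**
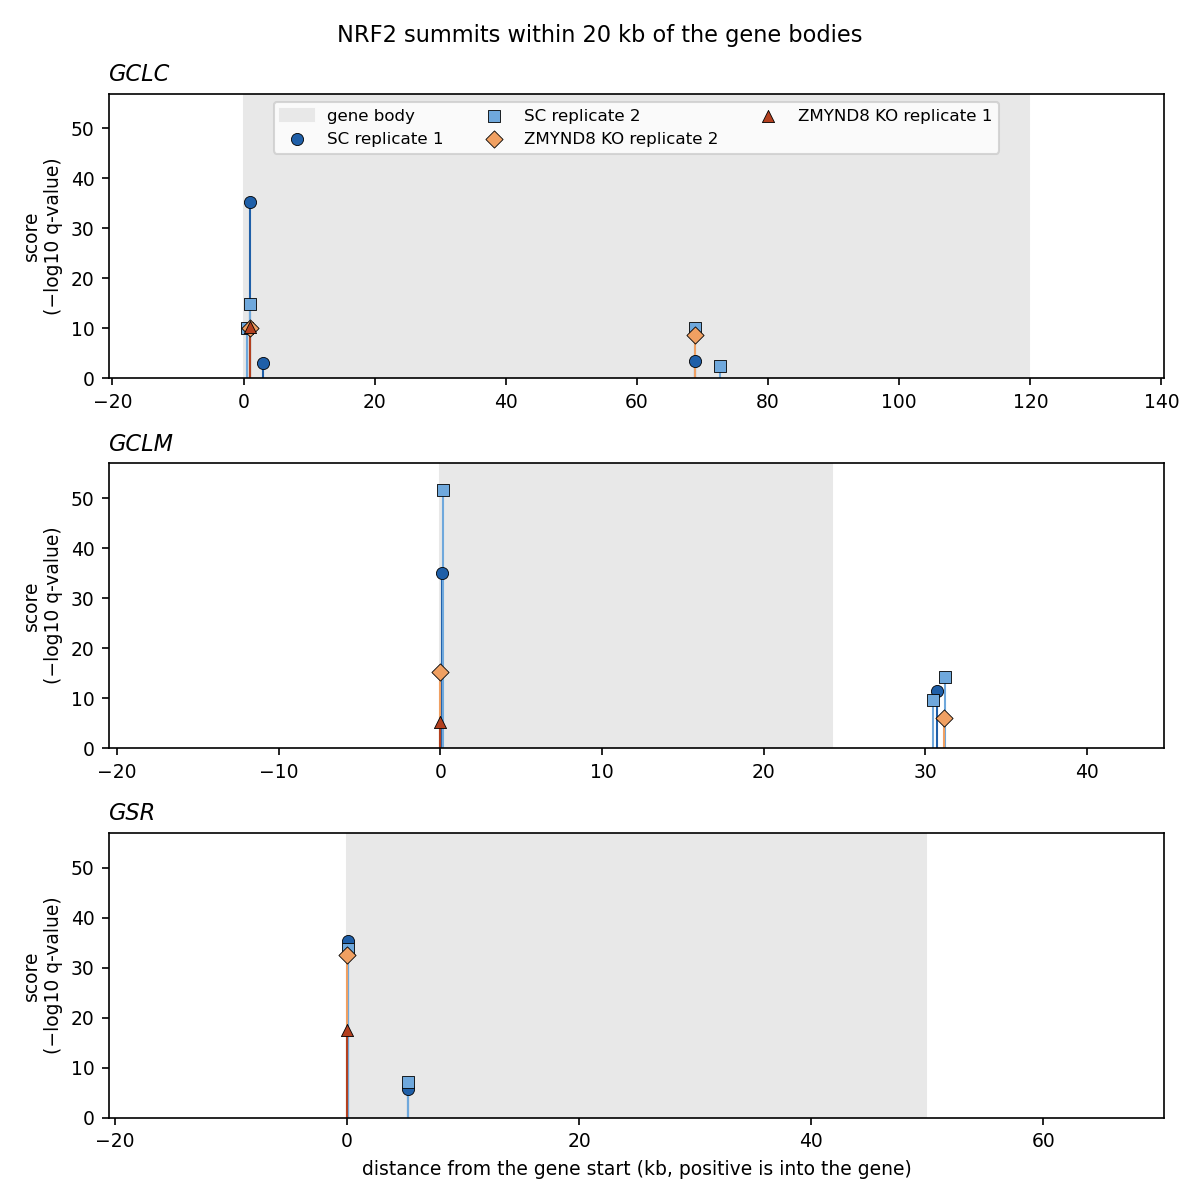
NRF2 summits within 20 kb of *GCLC*, *GCLM*, and *GSR*, by distance from the gene start in kb (x axis, positive into the gene) and score as −log10 of the q-value (y axis). Each point is 1 summit of 1 library, a vertical line joins it to 0, and grey marks the hg19 gene body. The highest point of each library lies within 1000 bp of the start of that body in every panel.

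*GCLC* encodes the catalytic subunit. Its start summit, 906 to 995 bp into the gene, had a score of 35.3 in SC replicate 1 (rank 74 of 2030) and 14.8 in SC replicate 2 (rank 346 of 6816). The ZMYND8 KO scores there were 10.2 in replicate 1 (rank 187 of 394) and 10.1 in replicate 2 (rank 201 of 477). Each ZMYND8 KO summit ranked near the middle of its list, while both SC summits ranked near the top of theirs, but the SC lists are much longer. By rank number both ZMYND8 KO summits stood between the SC summits. SC replicate 2 had an extra summit 550 bp into the gene with a score of 10.1, 356 bp from its own start summit. SC replicate 1 alone had a weak summit 3031 bp into the gene (score 3.05).

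A second site of *GCLC* lay deep inside the hg19 body, 68861 to 68920 bp from its start and 50909 to 50968 bp from its far end. Its scores were 3.56 in SC replicate 1, 10.1 in SC replicate 2, and 8.69 in ZMYND8 KO replicate 2, and ZMYND8 KO replicate 1 had no summit there. This site was therefore called in 3 of 4 lists. A further summit, with a score of 2.53, was called in SC replicate 2 alone at 72631 bp from the start. As background, an ARE has been described upstream of the shorter *GCLC* transcript. Whether either of these sites lies at it was not determined, since no hg19 sequence was used.

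*GCLM* encodes the modifier subunit, which raises the affinity of the ligase for glutamate. Its start summit had a score of 35.0 in SC replicate 1 (rank 79), 51.7 in SC replicate 2 (rank 44), while the ZMYND8 KO lists gave 5.18 in replicate 1 (rank 319) and 15.2 in replicate 2 (rank 119). Both SC summits ranked higher than both ZMYND8 KO summits, although the SC lists are the longer ones.

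The other summits near *GCLM* lay outside the gene, 6200 to 6957 bp beyond its far end, on the side where RefSeq's order of genes in GRCh38 has *DNTTIP2* as the next protein-coding gene. SC replicate 1 had 1 summit there (score 11.5), SC replicate 2 had 2 (scores 14.3 and 9.71), ZMYND8 KO replicate 2 had 1 (score 5.94), and ZMYND8 KO replicate 1 had 0. The ZMYND8 KO replicate 2 summit lay 36 bp from the stronger summit of SC replicate 2. The summit of SC replicate 1 fell between both SC replicate 2 summits, 481 and 276 bp from them, so that at 200 bp it matched neither.

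*GSR* encodes glutathione reductase. Its start summit had a score of 35.3 in SC replicate 1 (rank 74), 33.7 in SC replicate 2 (rank 96), against 17.5 in replicate 1 (rank 98) and 32.6 in replicate 2 (rank 37) of ZMYND8 KO. By rank ZMYND8 KO replicate 2 was the highest, above both SC replicates, and ZMYND8 KO replicate 1 was the lowest. This position lies at the end of *GSR* that faces *UBXN8*, the next protein-coding gene in the RefSeq order. A weaker site 5254 to 5258 bp into the gene was called in both SC lists, 4 bp apart (scores 5.70 and 7.22), and in neither ZMYND8 KO list. It was the only one of the 11 sites called in both SC lists and in no ZMYND8 KO list. Over all features, 58.7% and 17.6% of SC summits recurred in the other SC list (replicate 1 first). A ZMYND8 KO summit was found for 22.2% and 7.00% of them. In SC replicate 1, 1191 of 2030 summits recurred in SC replicate 2, and only 451 had a ZMYND8 KO summit. Summits called in both SC lists and in no ZMYND8 KO list are therefore common in SC replicate 1, although their share was not counted.

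Beyond the windows the next summits were mostly far away, in lists that are sparse throughout (densities below). The next summit outside the 20 kb window lay 567 kb from the body of *GCLC* and 541 kb from that of *GSR* in SC replicate 2, and further away in the other lists. At *GCLM* the next one was 38.7 kb away in SC replicate 2, with a score of 2.32, and 223 kb away in the other lists. Inside the windows, which cover 0.314 Mb, there were 22.3 and 28.7 summits per Mb in SC replicates 1 and 2, against 0.681 and 2.29 over the span of the lists. The ZMYND8 KO replicates had 9.56 and 15.9 per Mb, against 0.133 and 0.161. The 3 genes were chosen as known NRF2 targets, so these densities are a description.

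Fewer summits were called near the 3 genes in ZMYND8 KO, with 4 ± 1.41 (SD, n = 2) against 8 ± 1.41 in SC, a ratio of 0.500. *GCLC* had 3 and 4 summits in the SC lists and 1 and 2 in the ZMYND8 KO lists. *GCLM* had 2 and 3 against 1 and 2, and *GSR* had 2 in each SC list against 1 in each ZMYND8 KO list. Within 5 kb of *GCLM* every list had 1 summit, so its difference came from the summits beyond its far end. The groups did not overlap at *GCLC*, at *GSR*, and over the 3 genes together (p = 0.33 for each in an exact permutation test, two-sided, the lowest value that 2 libraries against 2 allow), and they overlapped at *GCLM* (exact permutation test, two-sided p = 0.67). Over all features the lists fell much further, from 8846 summits in both SC lists to 871 in both ZMYND8 KO lists. Summits near the 3 genes were thus a larger share of the ZMYND8 KO lists (0.918%) than of the SC lists (0.181%), and the difference in number was not seen at equal list length. With each list shortened to its 394 highest-scoring summits, the 3 genes held 4 and 4 summits in SC and 3 and 5 in ZMYND8 KO, and with the 300 highest they held 3 and 2 in SC and 2 and 4 in ZMYND8 KO.

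Sharing between the groups was then counted. Of the SC summits near these genes, 4 of 7 in replicate 1 and 5 of 9 in replicate 2 had a ZMYND8 KO summit within 200 bp, where 22.2% and 7.00% of all summits in these lists did. In SC, summits of the 3 start sites account for 6 of these 9, and the others were the second *GCLC* site and the stronger SC replicate 2 summit beyond *GCLM*. All 3 summits of ZMYND8 KO replicate 1 and all 5 of replicate 2 had an SC summit, where 91.1% and 88.1% of their lists did, so that no site near these genes was called in ZMYND8 KO alone. This rests on the 200 bp limit. Within 100 bp, 6 of 8 ZMYND8 KO summits had an SC summit and 7 of 16 SC summits had a ZMYND8 KO summit, because the SC and ZMYND8 KO summits at the *GCLM* start lie further apart than that, and this start then counts as an SC site beside a ZMYND8 KO site and not as 1 site of all 4 lists. Between replicates, 5 of 7 and 5 of 9 SC summits recurred (58.7% and 17.6% of the lists), and in ZMYND8 KO 3 of 3 and 3 of 5 (68.8% and 56.8%). A summit in each of the 3 other lists was found for the 3 start summits of every list, where 11.3% and 3.32% of all summits in the SC lists and 58.1% and 47.8% of those in the ZMYND8 KO lists had one (replicate 1 first).

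Most high-ranking summits of the SC lists were also called in ZMYND8 KO, so the summits near these genes were set beside others of like rank. All 3 start summits of SC replicate 1 ranked between 51 and 100, where 97.9% of its summits had a ZMYND8 KO summit (96.2% between ranks 1 and 50). In SC replicate 2 the share was 98.0% for ranks 1 to 50, which hold the *GCLM* start, and 96.0% for ranks 51 to 100, which hold that of *GSR*. No summit near the 3 genes ranked between 101 and 300, where the shares were 66.5% and 67.0%. Between ranks 301 and 1000, 3 of 5 summits of SC replicate 2 near these genes had a ZMYND8 KO summit, the *GCLC* start among them, where 21.0% of all in that range did. In SC replicate 1 this range held 1 summit, the one beyond *GCLM*, which had none, where 24.6% had one. Between ranks 1001 and 2030, where 4.67% and 4.69% had one, lay both summits of the *GSR* site inside the gene, which had none, and 2 of SC replicate 1 at *GCLC*, of which the one at its second site did.

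To set scores of different lists side by side, each score was divided by the median score of its list over the 229 sites called in all 4 lists, and the log2 of this ratio is called the scaled score. The medians were 23.9 and 24.3 in SC and 13.7 and 13.8 in ZMYND8 KO. Many of the 229 sites lie in dense clusters, as from 92281317 to 92325791 on chr2 and from 75664445 to 75722643 on chr15. Neighbors in a cluster may not be independent and were not set apart, so the medians, ranks, and counts of sites rest on them too. Sites that were lost in ZMYND8 KO are not in this set, so it compares retained sites with each other, and fewer cells with bound NRF2 cannot be told apart from weaker binding per cell.

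*GCLM* was lower in both ZMYND8 KO lists than in both SC lists on this scale. Its scaled score was 0.55 in SC replicate 1, 1.09 in SC replicate 2, with −1.40 and 0.14 in replicates 1 and 2 of ZMYND8 KO, so the groups did not overlap, as at 18.3% of the 229 sites with ZMYND8 KO lower and at 23.6% with ZMYND8 KO higher. The difference between the group means was −1.45, or 0.82 ± 0.38 in SC and −0.63 ± 1.10 in ZMYND8 KO (SD, n = 2), and only 2 of the 229 sites had a lower one, while the median of all sites was 0.07 (quartiles −0.34 and 0.39). Among these sites it ranked 70 and 38 in SC and 204 and 100 in ZMYND8 KO. The difference did not pass the test (p = 0.33 in the exact permutation test, two-sided, which cannot go lower, adjusted p = 0.80 over the 229 sites). Its size rested on ZMYND8 KO replicate 1, without which it was −0.67 and 46 sites were lower.

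At *GCLC* and *GSR* the groups overlapped on this scale. At *GCLC* the scaled scores were 0.56 and −0.71 in SC and −0.42 and −0.44 in ZMYND8 KO, so that both ZMYND8 KO values lay between the SC values. The difference was −0.36, with 55 sites lower, and it turned to 0.28 without SC replicate 1 (exact permutation test over all libraries, two-sided p = 1.00). At *GSR* they were 0.56 and 0.47 in SC and 0.35 and 1.24 in ZMYND8 KO, so that the ZMYND8 KO values lay on either side of SC. The difference was 0.28, with 147 sites lower (exact permutation test, two-sided p = 1.00), and −0.16 without ZMYND8 KO replicate 2. Without scaling, the ZMYND8 KO scores were lower at every start, with differences of −1.17 at *GCLC*, −2.26 at *GCLM*, and −0.53 at *GSR* on the log2 scale. The groups did not overlap at any of these starts (p = 0.33 each, exact permutation test), so the overlap at *GCLC* and *GSR* depends on the scaling. Median unscaled scores over the sites called in every list were also lower in ZMYND8 KO. They were 13.7 and 13.8 there, against 23.9 and 24.3 in SC. At how many of those sites the groups did not overlap without scaling was not counted. The unscaled differences are therefore not shown to be particular to these genes. Whether the difference at *GCLM* is larger than at the other genes was not tested.

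**Figure D2:**
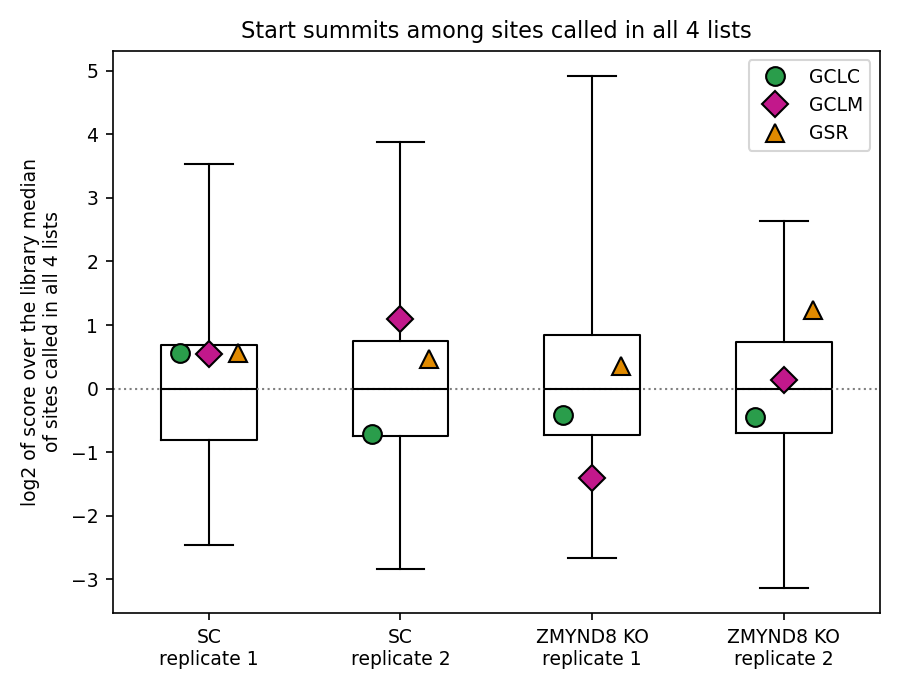
Scaled score, the log2 of score over the library median (y axis), of the start summits of *GCLC*, *GCLM*, and *GSR* in each library (x axis), over box plots of the 229 sites called in all 4 lists (box, quartiles, line, median, whiskers, lowest and highest site). *GCLM* goes from 0.55 and 1.09 in SC to −1.40 and 0.14 in ZMYND8 KO, while *GSR* is above 0 in every library.

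**Figure D3:**
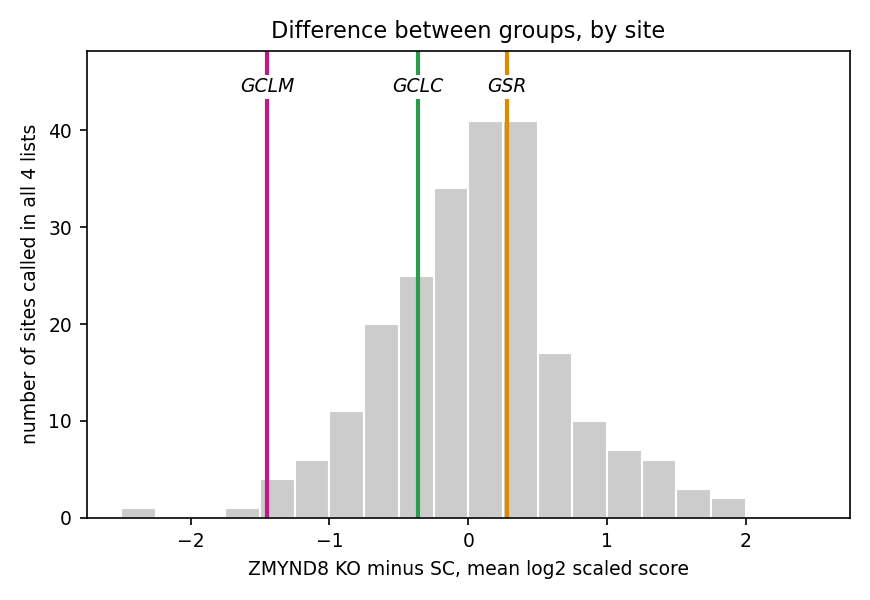
Number of the 229 sites called in all 4 lists (y axis) by the difference of mean scaled score between ZMYND8 KO and SC (x axis, log2), with the start sites of the 3 genes as vertical lines. *GCLM* lies at −1.45 near the low end, *GCLC* at −0.36 and *GSR* at 0.28 lie among the bulk of the sites.

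The positions of the start summits also stood apart between the groups. At *GCLM* it lay 123 and 132 bp downstream of the gene start in SC and 34 and 35 bp upstream of it in ZMYND8 KO. The group means were 162.0 bp apart, against 9 bp between the SC replicates and 1 bp between the ZMYND8 KO replicates. Whether either pair lies on the ARE letters printed above was not determined, since those are placed by another annotation and build.

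At *GSR* the summit was 65 and 89 bp into the gene in SC and 24 bp in both ZMYND8 KO lists, a difference of 53.0 bp toward the start. At *GCLC* it was 949 and 906 bp into the gene in SC and 995 and 980 bp in ZMYND8 KO, a difference of 60.0 bp away from the start. Positions did not overlap between the groups at any of the 3 genes, as at 34.1% of the 229 sites. Over these sites the median difference between the group means was 14.0 bp (quartiles 5.00 and 36.5), and the median distance between replicates was 13.0 bp in each group. No site had a larger difference than *GCLM*, 29 had a larger one than *GCLC*, and 36 a larger one than *GSR*. This order depends on the 200 bp limit that defines a site, since among the 301 sites matched within 500 bp, 49 had a larger difference than *GCLM*. None of the 3 differences passed the test (p = 0.33 for each in the exact permutation test, two-sided, which cannot go lower, adjusted p = 0.98 over the 229 sites).

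**Figure D4:**
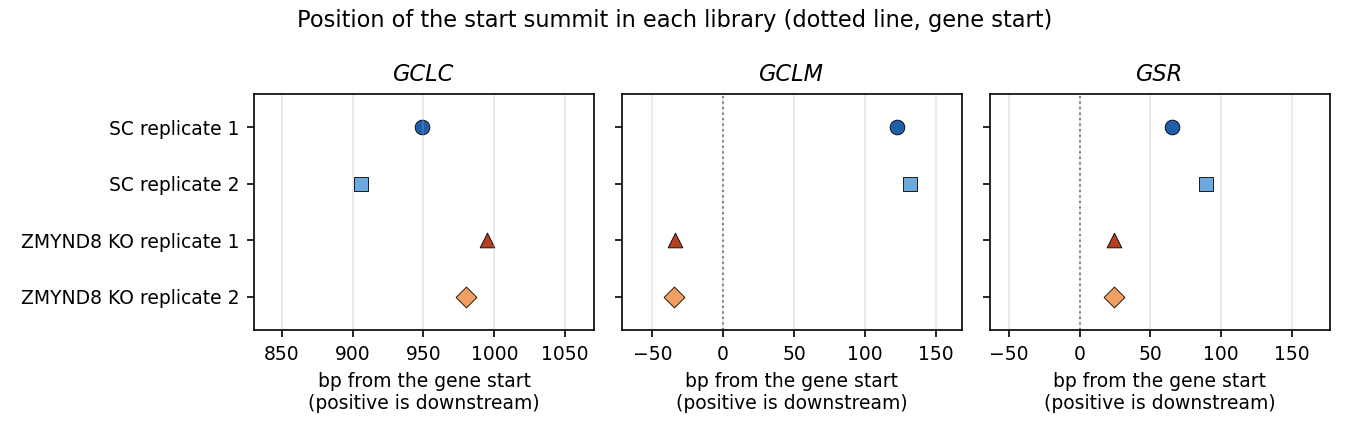
Position of the start summit of *GCLC*, *GCLM*, and *GSR* in each library (y axis), in bp from the gene start (x axis, positive downstream, dotted line at the start). At *GCLM* the SC points lie at 123 and 132 bp and the ZMYND8 KO points at −34 and −35 bp, and at each gene the SC and ZMYND8 KO points do not overlap.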

How the data were processed

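NRF2 ChIP-Seq was analyzed in 2 SC and 2 ZMYND8 KO libraries. The authors deposited 1 MACS2 summit list per library, whose score was read as −log10 of the q-value because the lowest, 1.32, lay just above the −log10 of 0.05 (1.30). The submitters' processing notes name FastQC 0.11.2, Bowtie2 2.2.3, Picard 1.127, MACS2 2.0.10, and the builds hg19 and hg38, and a control library is not given in the sources used here. The lists were read as hg19, because 12 of 12 gene and library pairs had a summit within 1000 bp of the hg19 gene start and 0 of 12 within 1000 bp of the GRCh38 one. Positions are counted from 1.

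Summits within 20 kb of each gene body were counted per library, and a summit recurred when another list had one within 200 bp. Group means were compared by exact permutation tests (two-sided) over libraries. Adjusted values are Benjamini-Hochberg over the 229 sites called in all 4 lists. Functions were tested on simulated lists, with Python 3.11.15, numpy 2.4.6, and matplotlib 3.10.9. The named genes were the 3 members. Other genes of glutathione metabolism were not analyzed here, since no hg19 coordinates were used for them. The genes, lists, and tests were chosen with earlier results of these data known.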

Additional observations from a re-analysis of the deposited data

How the results depend on the processing

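Counts near the genes depended on list length. The difference in mean number of summits, SC minus ZMYND8 KO, was 2 at *GCLC*, 1 at *GCLM*, 1 at *GSR*, and 4 together. At a score of at least 10 it was 1 at *GCLC*, 1.50 at *GCLM*, 0 at *GSR*, and 2.50 together, so that it rose at *GCLM*. With the 300 highest-scoring summits it was −1 at *GCLC*, 0.500 at *GCLM*, 0 at *GSR*, and −0.500 together, and with lists shortened to 394 summits −0.500, 0.500, 0, and 0 in the same order. These settings remove more summits from the longer SC lists. At *GCLM* it was 0 with a window of 5 kb and 2 with 100 kb, and leaving out 1 library it ran from 0.500 (without SC replicate 2 or ZMYND8 KO replicate 1) to 1.50.

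At a score of at least 10, 6 SC summits had a summit of the other SC list (10 without the threshold) and 5 ZMYND8 KO summits had an SC summit (8 without it), since fewer summits were left. Within 100 bp the *GCLM* start was no longer shared between the groups. With all libraries, 9 of 16 SC summits were shared with ZMYND8 KO. This was 5 of 9 without SC replicate 1 and 4 of 7 without SC replicate 2. Without ZMYND8 KO replicate 1 it was 9 of 16, and without ZMYND8 KO replicate 2 it fell to 6 of 16. ZMYND8 KO summits shared with SC were 8 of 8 and 7 of 8 without SC replicates 1 and 2. They were 5 of 5 and 3 of 3 without ZMYND8 KO replicates 1 and 2. Summits per Mb fell from 25.5 to 17.2 with windows of 50 kb and 11.3 with 100 kb in SC, and from 12.7 to 8.10 and 5.04 in ZMYND8 KO. The fixed form of the ARE was in 0 of the 2 promoters, against 1 with the core.

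The scaled scores and positions were chosen after the data were seen. Leaving out 1 library, the scaled difference ran from −0.99 to 0.28 at *GCLC*, from −2.22 to −0.67 at *GCLM*, and from −0.16 to 0.73 at *GSR*. Unscaled it was −1.17, −2.26, and −0.53 in the same order. The position difference kept its sign in each case. With replicate numbers as a block, the difference in counts stayed at 4 (p = 0.50, exact sign flips of 2 pairs, which cannot go lower). With so few libraries neither test could make a call, so none could change. Nothing in the labels ties equal replicate numbers to one batch, which 2 pairs cannot show either. Unknown depth limits every count and score here.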
